A study of Mus musculus with 23 samples.

Results

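Mouse aortic endothelial cells kept in plasma of mice lacking apolipoprotein E and Stabilin-2 were compared with the same cells kept in plasma of mice lacking apolipoprotein E alone. The comparison takes 11 of the 23 arrays of the series, 6 with ApoE-Stab2-KO plasma and 5 with ApoE-KO plasma, chosen by the plasma genotype in the labels, and covers all 24704 genes with a symbol. The cells (MAOEC) were bought as primary cells of the aorta, grown to confluence in endothelial medium with fetal calf serum, and then held for 48 h in medium in which 10% plasma replaced that serum. The labels give the strain C57BL/6J, and say that the knockout donors, whether ApoE-Stab2-KO, ApoE-Stab1-KO or ApoE-KO, had eaten Western diet for 8 weeks before plasma was taken. Apolipoprotein E was thus missing in the donors of both groups compared, and both had the same diet, so that loss of Stabilin-2 is what the labels give as the difference. The remaining arrays had ApoE-Stab1-KO plasma (6) or Wildtype plasma (6), and no diet is given for the Wildtype donors. A genotype here always describes the mouse that gave the plasma, never the cultured cells. Nothing in the labels ties a replicate to 1 donor mouse or 1 culture, nor says whether plasma was pooled, so p-values here measure the spread between arrays, which may be partly technical.

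Apolipoprotein E is the ligand by which the liver takes up lipoprotein remnants, and mice without it carry high plasma cholesterol on Western diet. Stabilin-2 is a scavenger receptor of sinusoidal endothelium, mainly in liver and spleen, which removes hyaluronan, modified lipoproteins and other waste molecules from the blood, so that its loss alters which molecules circulate. An endothelial cell meets plasma sterol through its lipoprotein receptors. When sterol in the endoplasmic reticulum is low, the escort protein Scap carries SREBP2 to the Golgi apparatus, where it is cut and released to switch on the enzymes of cholesterol synthesis. When sterol is high, Insig proteins hold Scap back and the enzymes are transcribed less.

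The label of the cells was set against marker genes, read only as bright or dim against the median gene of the arrays. All 12 endothelial marker genes (Pecam1, Cdh5, Tek, Tie1, Kdr, Flt1, Eng, Esam, Vwf, Egfl7, Erg and Cldn5) lay above the median gene, with mean log2 levels of 8.27 to 12.8 against 4.30 for the median gene. Of the markers of other cells, 4 of 13 of smooth muscle and pericytes, 3 of 11 of fibroblasts, 1 of 12 of macrophages and leukocytes, 3 of 7 of lymphatic endothelium, 3 of 7 of red cells and platelets and 2 of 8 of liver lay above the median gene. Among the lymphatic markers Lyve1 was at 12.75 and Flt4 at 9.64, while Prox1 was at 3.27. Correlations between any pair of the 23 arrays were 0.992 to 0.997, and no arrays were identical. ApoE-Stab1-KO replicate 1 stood apart, with a residual standard deviation over genes of 0.208 where the other arrays had 0.109 to 0.156. Values are log2 RMA expression levels, so that a difference of 1 is a 2-fold change, and they are relative within an array. Probe sets differ in brightness, so levels of different genes cannot be ranked, and a place above or below the median gene is a rough description only.

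Against ApoE-KO plasma, 6 genes passed the test with ApoE-Stab2-KO plasma, 3 upward and 3 downward, 0.0243% of the 24704 genes, at an adjusted p under 0.05 from limma with Benjamini-Hochberg adjustment over all genes. The genes that fell were Hmgcs1, an enzyme of cholesterol synthesis, Havcr2, which encodes the immune receptor TIM-3, and Aqp4, a water channel gene. Those that rose were the microRNA gene Mir1896, the long non-coding RNA gene Gm16617 and the olfactory receptor gene Olfr372. Differences were small: 1 of the 6 reached 1.5-fold, and the largest size among the 3 that fell was -0.39 on the log2 scale. At an unadjusted p under 0.05, 974 genes were higher (3.94%) and 1091 lower (4.42%), together 2065 where 1235 would be expected if no gene differed. All arrays of one group lay above all arrays of the other in 136 genes that were higher (0.551%) and 193 that were lower (0.781%). Passing the threshold depended on single arrays. The differences kept their direction, but where the groups of a called gene did not overlap, leaving out 1 array could not have changed it. Leaving out 1 array at a time gave 0 called genes in 8 of 11 cases. The arrays left out there were ApoE-KO replicates 1, 2 and 3 and ApoE-Stab2-KO replicates 1, 2, 3, 5 and 6. Without ApoE-Stab2-KO replicate 4 the count was 1, a gene not among the 6, so that none of the 6 stayed there either. It was 1, a gene among the 6, without ApoE-KO replicate 4, and 12, including the 6, without ApoE-KO replicate 5. Over these and the other alternatives run, the difference of Hmgcs1 ranged from -0.37 to -0.30, that of Havcr2 from -0.41 to -0.37 and that of Aqp4 from -0.26 to -0.22. Likewise Mir1896 ranged from 0.84 to 1.13, Gm16617 from 0.51 to 0.64 and Olfr372 from 0.29 to 0.37. An exact permutation test of each gene over the 11 arrays called 0 genes after adjustment. Its smallest possible p of 0.00216 was reached by 199 genes, which gave a smallest adjusted p of 0.269. With 462 arrangements and 24704 genes, a single gene could not pass however wide its difference. That 0 therefore says nothing about the 6 calls.

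**Figure D1:**
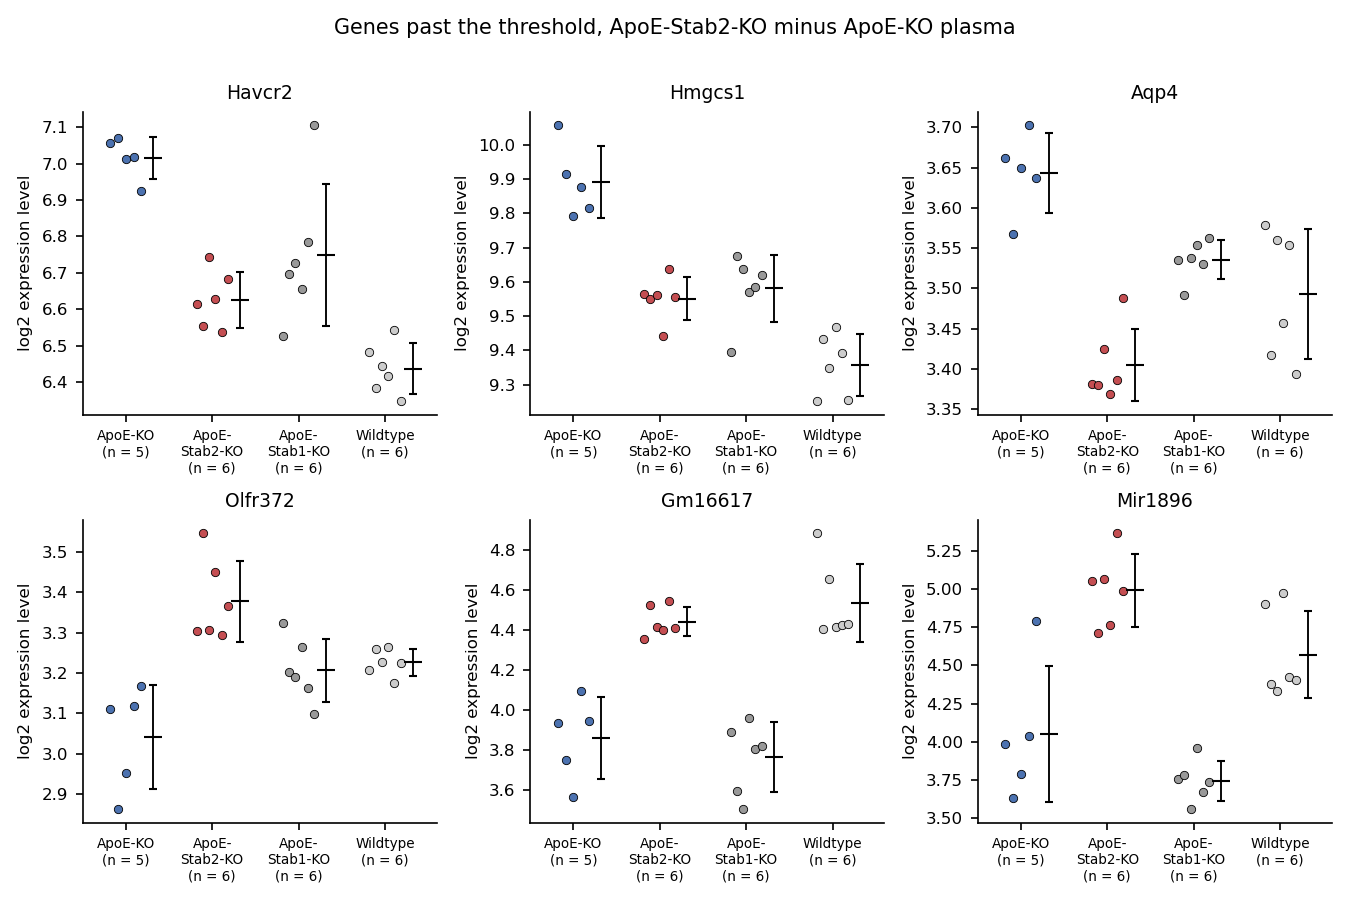
Log2 expression level (vertical axis) of the 6 genes past the threshold in every array of the 4 plasma groups, with the mean and standard deviation beside each group. In 5 of the 6 panels no ApoE-KO array overlaps an ApoE-Stab2-KO array, and in the panel of Mir1896 ApoE-KO replicate 5 lies at 4.79, inside the ApoE-Stab2-KO range of 4.71 to 5.36.

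Sequences from RefSeq (GRCm38.p6) are shown for sterol genes and for the microRNA encoded by Mir1896, whose probe set rose. Of the sterol genes shown, Hmgcs1 passed the test, and Msmo1, Lss, Cyp51 and Insig1 did not. The promoter stretches lie within 250 bases upstream of the annotated start. They differ in length and position and were set gene by gene around motif matches, so their matches cannot be compared between genes. Capitals mark TCACNCCAC, a form of the sterol regulatory element that SREBP binds, and the CCAAT box, bound by NF-Y, in either orientation, so that it reads ATTGG when it lies on the other strand. The stretch of Hmgcs1 is chr13:119690101-119690350 on the plus strand, that of Msmo1 chr8:64733619-64733748 on the minus strand, that of Lss chr10:76531505-76531584 on the plus strand, that of Cyp51 chr5:4104698-4104777 on the minus strand and that of Insig1 chr5:28071172-28071251 on the plus strand.
Hmgcs1: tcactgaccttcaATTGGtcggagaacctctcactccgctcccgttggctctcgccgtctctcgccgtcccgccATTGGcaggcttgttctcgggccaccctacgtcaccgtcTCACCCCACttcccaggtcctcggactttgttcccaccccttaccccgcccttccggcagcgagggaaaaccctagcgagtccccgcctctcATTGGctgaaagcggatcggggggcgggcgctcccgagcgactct
Msmo1: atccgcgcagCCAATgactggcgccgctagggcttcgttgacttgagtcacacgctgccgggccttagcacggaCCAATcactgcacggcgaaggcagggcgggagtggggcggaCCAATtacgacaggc
Lss: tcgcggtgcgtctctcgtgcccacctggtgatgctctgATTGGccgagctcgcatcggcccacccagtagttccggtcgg
Cyp51: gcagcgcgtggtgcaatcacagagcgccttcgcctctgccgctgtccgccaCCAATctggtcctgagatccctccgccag
Insig1: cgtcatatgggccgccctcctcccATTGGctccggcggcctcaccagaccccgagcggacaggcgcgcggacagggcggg
The mature microRNA of Mir1896 lies at chr13:21445209-21445230 on the plus strand, and capitals mark its seed, bases 2 to 8.
mmu-miR-1896: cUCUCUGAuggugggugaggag

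Of the 17 cholesterol synthesis enzymes measured, 14 had a promoter of 300 bases in the RefSeq table, reaching from 250 bases before the start to 50 after it. A CCAAT box on either strand was in 14 of these 14 genes, and in 41.1% of the 27025 genes with a promoter. TCACNCCAC on either strand was in 1 of the 14, Hmgcs1, and in 1.44% of all genes. Among the 14 measured genes of SREBP control and sterol uptake, 12 had a promoter, of which 8 held a CCAAT box and 0 held TCACNCCAC. The motifs do not overlap each other in the stretches shown, and a match describes letters only.

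Cholesterol synthesis enzymes were lower with ApoE-Stab2-KO plasma in 16 of 17 measured genes, of which 1 passed the test. The median of the 17 differences was -0.22 on the log2 scale, beside -0.0035 over all genes tested. An unadjusted p under 0.05 was reached by 11 of the 17, all lower, and in 3 of the 17 the arrays of the groups did not overlap, also lower. Over all genes 4.42% were lower at that p in limma, and 0.781% were lower without overlap. The list was chosen with earlier results of these data known, so these counts describe it and are no independent evidence of its direction.

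Early enzymes, from acetyl units to squalene epoxide, were represented by 8 measured genes with a median of -0.17, of which 1 fell and 7 did not pass. Hmgcs1, the cytosolic HMG-CoA synthase, acts near the start of the pathway. Its log2 level was 10.06, 9.92, 9.79, 9.88 and 9.82 in ApoE-KO replicates 1 to 5, and with ApoE-Stab2-KO plasma the lowest array was at 9.44, the median at 9.56 and the highest at 9.64. All 6 ApoE-Stab2-KO arrays thus lay below all 5 ApoE-KO arrays. The difference was -0.34 ± 0.06 (SE; 95% interval -0.46 to -0.22), 0.79 times the level, with an adjusted p of 0.026 from limma. Sqle, the squalene epoxidase, was at 9.30, 9.28, 9.37, 9.19 and 9.20 with ApoE-KO plasma and at 8.92, 9.01 and 9.19 (lowest, median and highest) with ApoE-Stab2-KO plasma. Its groups met at 9.19, and the difference of -0.23 ± 0.05 did not pass (adjusted p = 0.209). Fdft1, the squalene synthase (-0.27 ± 0.09), and Mvd, the mevalonate diphosphate decarboxylase (-0.19 ± 0.07), reached an unadjusted p under 0.05 and did not pass (adjusted p = 0.429 and 0.473, limma). Mvk (-0.02 ± 0.09) and Pmvk (-0.06 ± 0.09) differed by less than their standard errors, and Fdps (-0.14 ± 0.11, adjusted p = 0.778) did not pass. Idi1, the isopentenyl diphosphate isomerase, was the only enzyme of the 17 with a positive difference (0.26 ± 0.13, adjusted p = 0.627), from 4.83 to 5.30 with ApoE-KO plasma and 5.12 to 5.56 with ApoE-Stab2-KO plasma.

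Late enzymes, which turn squalene epoxide into lanosterol and then cholesterol, were lower in 9 of 9 measured genes, with a median of -0.23, and none passed. Lss, the lanosterol synthase that closes the sterol rings, had the widest difference of the list at -0.35 ± 0.07 (adjusted p = 0.142). Its levels were 7.95, 7.89, 7.65, 7.77 and 7.70 with ApoE-KO plasma and 7.37, 7.40 and 7.66 (lowest, median and highest) with ApoE-Stab2-KO plasma. Only ApoE-Stab2-KO replicate 2, at 7.66, reached into the ApoE-KO range. Msmo1, the sterol methyl oxidase, was at 10.40, 10.27, 10.25, 10.18 and 10.08 with ApoE-KO plasma and at 9.79, 9.93 and 10.07 with ApoE-Stab2-KO plasma, a difference of -0.31 ± 0.06 without overlap (adjusted p = 0.142). Sc5d, the lathosterol oxidase, likewise did not overlap (9.52 to 9.79 against 9.35 to 9.50) and differed by -0.22 ± 0.06 (adjusted p = 0.255). Nsdhl (-0.25 ± 0.07), Cyp51, the lanosterol demethylase (-0.24 ± 0.07), Dhcr7, which makes cholesterol from 7-dehydrocholesterol (-0.23 ± 0.06), and Hsd17b7 (-0.21 ± 0.10) reached an unadjusted p under 0.05 only. In Cyp51 the groups met through ApoE-KO replicate 5, at 8.31, whereas the other ApoE-KO arrays were at 8.51 to 8.67 and the ApoE-Stab2-KO arrays at 8.22 to 8.34. Tm7sf2 (-0.19 ± 0.09) and Ebp (-0.05 ± 0.06) completed the list.

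**Figure D2:**
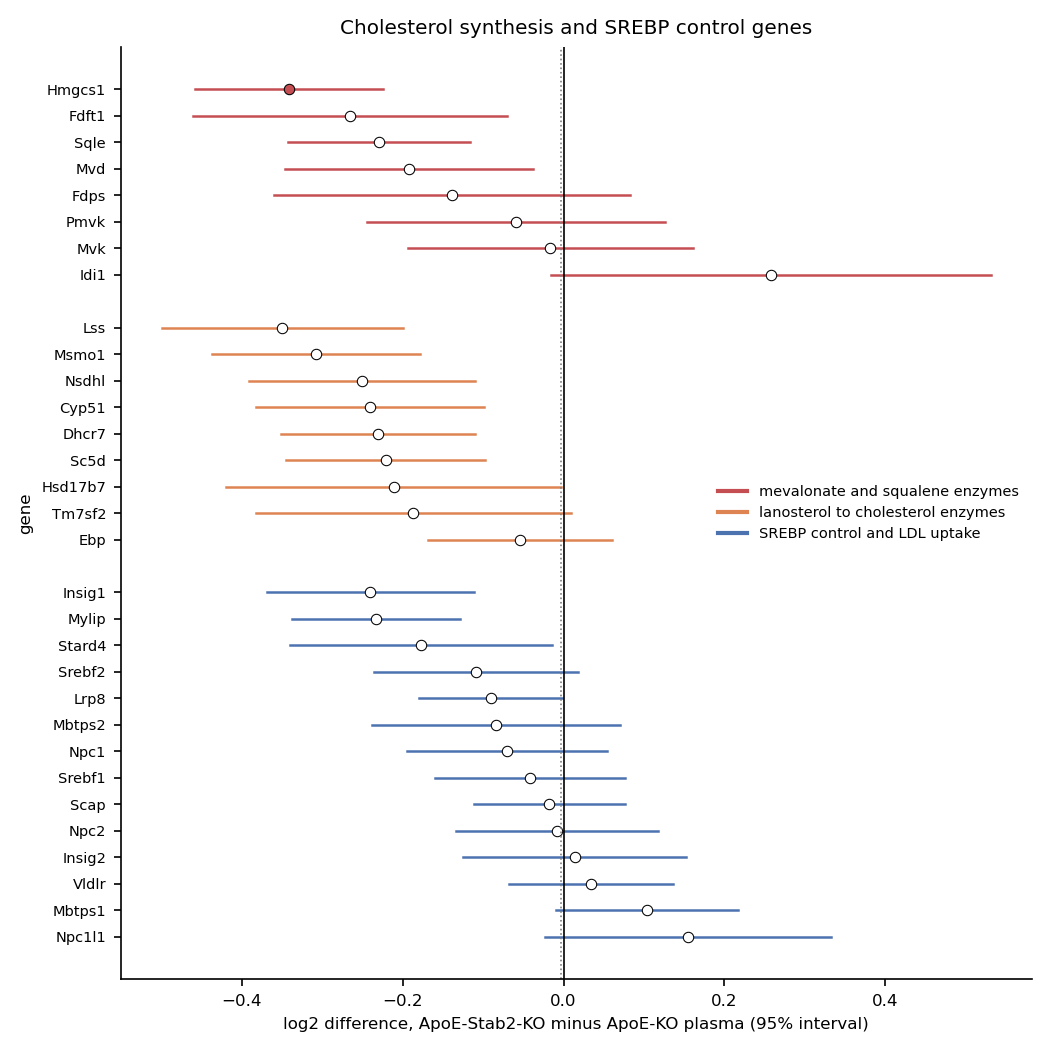
Log2 difference, ApoE-Stab2-KO minus ApoE-KO plasma (horizontal axis), of the 31 measured genes of cholesterol synthesis and SREBP control, each with its 95% interval from limma. The filled point is Hmgcs1, which passed the threshold, the dotted line is the median of all genes at -0.0035, and Idi1 is the enzyme to the right of 0.

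Genes that control SREBP or move sterol were less uniform: of 14 measured, 10 were lower and 4 higher, with a median of -0.06, and none passed. Insig1, the sterol-sensing anchor that is itself an SREBP target, was at 10.55, 10.53, 10.36, 10.50 and 10.34 with ApoE-KO plasma and at 10.18, 10.21 and 10.26 with ApoE-Stab2-KO plasma. Its groups did not overlap, and the difference was -0.24 ± 0.06 (adjusted p = 0.255, limma). Mylip, the ubiquitin ligase that degrades lipoprotein receptors, did not overlap either (4.19 to 4.31 against 3.96 to 4.08, -0.23 ± 0.05, adjusted p = 0.156), but at a mean of 4.10 it lay below the median gene of 4.30. Srebf2, which encodes SREBP2, was 9.89 to 9.94 with ApoE-KO plasma and 9.71 to 9.88 with ApoE-Stab2-KO plasma, a small shift without overlap (-0.11 ± 0.06, adjusted p = 0.671). Stard4, a sterol carrier, differed by -0.18 ± 0.08 (adjusted p = 0.561), and Srebf1 (-0.04 ± 0.06), Scap (-0.02 ± 0.05), Insig2 (0.01 ± 0.07) and the lipoprotein receptor gene Vldlr (0.03 ± 0.05) lay within their error.

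Averaged per array, the early enzymes were at 7.70 ± 0.04 (SD, n = 5 arrays) in the ApoE-KO group, from 7.67 to 7.76, and at 7.58 ± 0.06 (n = 6) in the ApoE-Stab2-KO group, from 7.48 to 7.64. The late enzymes were at 8.35 ± 0.11 and 8.12 ± 0.05, with ranges of 8.21 to 8.49 and 8.06 to 8.21 that met at their ends. ApoE-KO replicate 5 was the lowest of its group in the late enzymes. In ApoE-Stab1-KO plasma the late enzymes averaged 8.13 ± 0.07, and in Wildtype plasma 7.86 ± 0.06, below the ApoE-Stab2-KO range. Against Wildtype plasma 44 genes were called with ApoE-Stab2-KO plasma (0.178%), and 4 of the 9 late enzymes were among the 28 higher ones: Cyp51 (0.44, adjusted p = 0.0024), Msmo1 (0.38, 0.0047), Lss (0.36, 0.024) and Nsdhl (0.31, 0.041). That comparison also differs in apolipoprotein E and possibly in diet, and it shares the ApoE-Stab2-KO arrays with the one against ApoE-KO plasma. ApoE-KO minus Wildtype differences of these genes were 0.68 for Cyp51, 0.69 for Msmo1, 0.71 for Lss and 0.56 for Nsdhl.

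**Figure D3:**
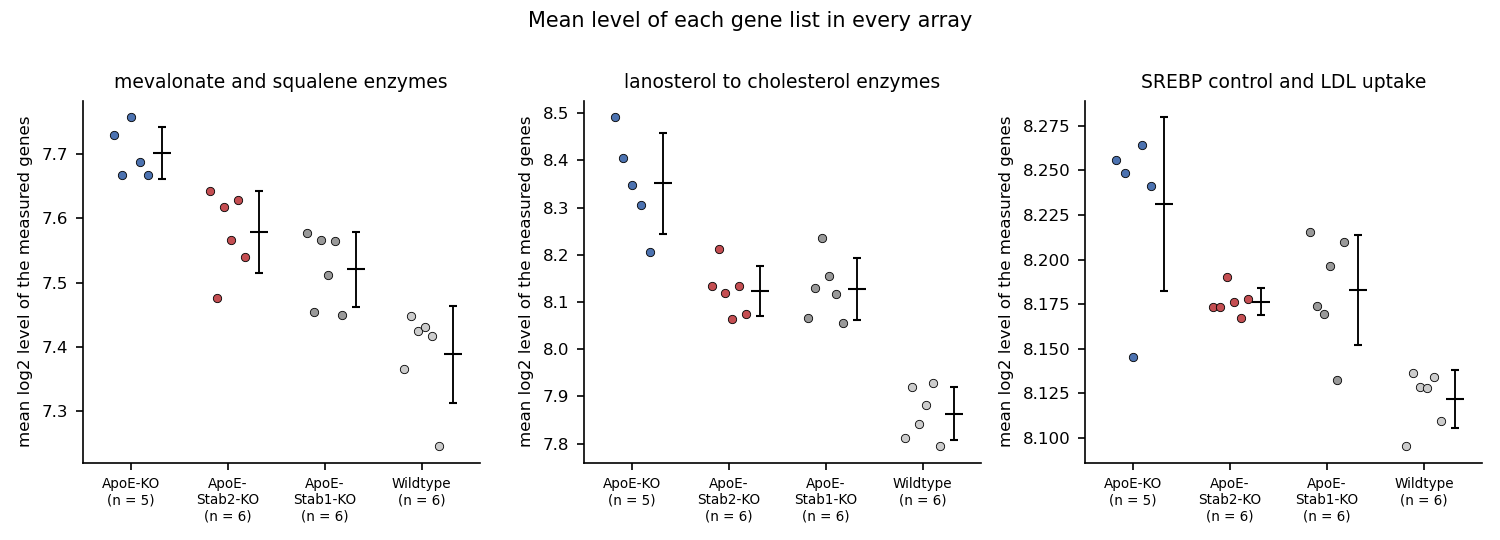
Mean log2 level of the measured genes of 3 lists (vertical axis) in every array of the 4 plasma groups, with group means and standard deviations. The early enzymes of the ApoE-KO arrays start at 7.67, above the highest ApoE-Stab2-KO array at 7.64, while the late enzymes and the control genes overlap at 1 ApoE-KO array each.

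Havcr2 encodes TIM-3, a receptor best known as a brake on T cells that binds galectin-9 and phosphatidylserine. Its level was 7.06, 7.07, 7.01, 7.02 and 6.92 with ApoE-KO plasma, and 6.54, 6.62 and 6.74 (lowest, median and highest) with ApoE-Stab2-KO plasma. The groups were apart, and the difference was -0.39 ± 0.07 (95% interval -0.53 to -0.25), 0.763 times the level, with an adjusted p of 0.042 from limma. Wildtype arrays were lower still, at 6.35 to 6.54, while ApoE-Stab1-KO arrays spread from 6.53 to 7.11. Of 12 leukocyte markers, 11 lay below the median gene, and Ptprc, the pan-leukocyte marker CD45, was at 2.92 ± 0.05 and 3.04 ± 0.04. The exception was Cd68, a lysosomal membrane protein gene, at 11.29 ± 0.09 and 11.17 ± 0.06. Of 18 measured genes of the TIM family, galectins and immune checkpoints, 1, Havcr2 itself, fell and 17 did not pass, with a median of -0.01. Over all 24704 genes 3 fell. Cd80, the ligand of CD28 and CTLA-4, was 10.12 to 10.22 with ApoE-KO plasma and 9.93 to 10.08 with ApoE-Stab2-KO plasma (-0.16 ± 0.04, adjusted p = 0.255, no overlap). Vsir, the checkpoint protein VISTA, differed the other way (0.27 ± 0.07, adjusted p = 0.255), as did Lgals3, galectin-3 (0.13 ± 0.06, adjusted p = 0.552).

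Aqp4, the water channel of astrocytes, was dim in these cells. Its levels of 3.66, 3.57, 3.65, 3.70 and 3.64 with ApoE-KO plasma and 3.37, 3.38 and 3.49 with ApoE-Stab2-KO plasma all lay below the median gene. They did not overlap and differed by -0.24 ± 0.04 (adjusted p = 0.026, limma). Of 12 aquaporin genes 1, Aqp4 itself, fell and 11 did not pass, 9 of the 12 differences were negative and the median was -0.07. Over all 24704 genes 3 fell and 12825 differences were negative. Aqp7, the glycerol channel of fat cells, followed (-0.29 ± 0.11, adjusted p = 0.462).

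Mir1896 had the widest difference of the genes that passed. Its probe set was at 3.98, 3.63, 3.79, 4.04 and 4.79 with ApoE-KO plasma and at 4.71, 5.02 and 5.36 with ApoE-Stab2-KO plasma. ApoE-KO replicate 5 lay among the ApoE-Stab2-KO arrays and the other 4 did not. The difference was 0.94 ± 0.16 (95% interval 0.61 to 1.27), 1.92-fold, with an adjusted p of 0.026. Whether its probe set reads the primary transcript or the mature form was not analysed here, so the value is that of the gene's probe set. In RefSeq the gene lies within Zscan26, whose own level was 7.62 ± 0.20 with ApoE-KO plasma and 7.68 ± 0.10 with ApoE-Stab2-KO plasma (0.07 ± 0.11, adjusted p = 0.912).

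Gm16617 was at 3.93, 3.75, 3.56, 4.10 and 3.95 with ApoE-KO plasma and at 4.36, 4.41 and 4.54 with ApoE-Stab2-KO plasma, a difference of 0.58 ± 0.10 without overlap (adjusted p = 0.026). Wildtype arrays stood with the ApoE-Stab2-KO arrays, at 4.40 to 4.88, and ApoE-Stab1-KO arrays with the ApoE-KO arrays, at 3.50 to 3.96. The gene overlaps Arhgef40, which differed by 0.07 ± 0.06 (adjusted p = 0.807), and whether its probes separate the strands was not analysed here. Olfr372 was at 3.11, 2.86, 2.95, 3.12 and 3.17 with ApoE-KO plasma and at 3.29, 3.34 and 3.55 with ApoE-Stab2-KO plasma, without overlap (0.34 ± 0.06, adjusted p = 0.026), all below the median gene. Of 1073 olfactory receptor genes 1 rose, 545 differences were positive and 528 negative, and 39 lay above the median gene.

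Mir1896 and Gm16617 also weighed in a pattern that ran across all arrays. The second principal component of the 23 arrays, 8.85% of the variance, ran from -1.57 to 7.64 in the ApoE-KO arrays and from -7.48 to -0.53 in the ApoE-Stab2-KO arrays. It ran from 2.04 to 14.0 in the ApoE-Stab1-KO arrays and from -12.2 to -2.84 in the Wildtype arrays. Of the 20 genes with the largest weights in it 16 were outside the protein-coding class, and both genes were among the 20. The part that this component had in the calls of these genes was not tested. Outside the protein-coding class 2 of 5018 genes were called, with a median difference of -0.0016, and within it 4 of 19686, with a median of -0.0038.

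Loss of Stabilin-2 in the donor was set directly against loss of Stabilin-1, since comparisons of each with ApoE-KO plasma share the ApoE-KO arrays. Between ApoE-Stab2-KO and ApoE-Stab1-KO plasma 12 genes were called (0.0486%), 9 higher and 3 lower with ApoE-Stab2-KO plasma. Mir1896 differed by 1.25 ± 0.15 (adjusted p = 0.00069, limma), with ApoE-Stab1-KO arrays at 3.56, 3.75 and 3.96 (lowest, median and highest) and none in the ApoE-Stab2-KO range. Gm16617 differed by 0.68 ± 0.09 (0.0019). Gm13609, a long non-coding RNA gene, was at 6.76, 7.14 and 7.48 with ApoE-Stab1-KO plasma and at 7.92, 8.03 and 8.21 with ApoE-Stab2-KO plasma, a difference of 0.91 ± 0.14 (0.0049). Against ApoE-KO plasma, at 7.29, 7.03, 7.29, 7.61 and 7.53, the same gene differed by 0.70 ± 0.14 without overlap and did not pass (0.142). The small nucleolar RNA gene Snord68 (0.74 ± 0.13, adjusted p = 0.017), Gm34921 (0.69 ± 0.12, 0.016), 2610020C07Rik (0.66 ± 0.09, 0.0026), the ribosomal pseudogene Rpl36-ps3 (0.56 ± 0.10, 0.017) and Gm4540 (0.35 ± 0.06, 0.017) were higher too.

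Ecsit and Aph1b stood among the 10 genes with the smallest p in that comparison. Ecsit, an assembly factor of respiratory complex I and an adaptor of Toll-like receptor signalling, was at 5.17, 5.36 and 5.54 with ApoE-Stab1-KO plasma and at 5.70, 5.87 and 6.14 with ApoE-Stab2-KO plasma (0.53 ± 0.08, adjusted p = 0.0055). Its ApoE-KO arrays, at 5.47 to 5.67, overlapped the ApoE-Stab1-KO range and lay below the ApoE-Stab2-KO arrays. The ApoE-Stab2-KO minus ApoE-KO difference was 0.32 ± 0.09 (0.255). Aph1b, a subunit of gamma-secretase, was lower, at 6.55, 6.79 and 6.92 against 6.96, 7.07 and 7.19 (-0.31 ± 0.05, 0.012). No cholesterol enzyme was called between the plasmas of the Stabilin knockouts, and the median of the 17 differences was 0.02. Hmgcs1 differed by -0.03 ± 0.05 (adjusted p = 0.89), Msmo1 by 0.02 ± 0.06 (0.95) and Lss by -0.12 ± 0.07 (0.54). Havcr2 differed by -0.12 ± 0.07 (0.51), Aqp4 by -0.13 ± 0.04 (0.18) and Olfr372 by 0.17 ± 0.05 (0.21). Without ApoE-Stab1-KO replicate 1, the array that stood apart, 37 genes were called, and without ApoE-Stab1-KO replicate 4 the count was 32.

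**Figure D4:**
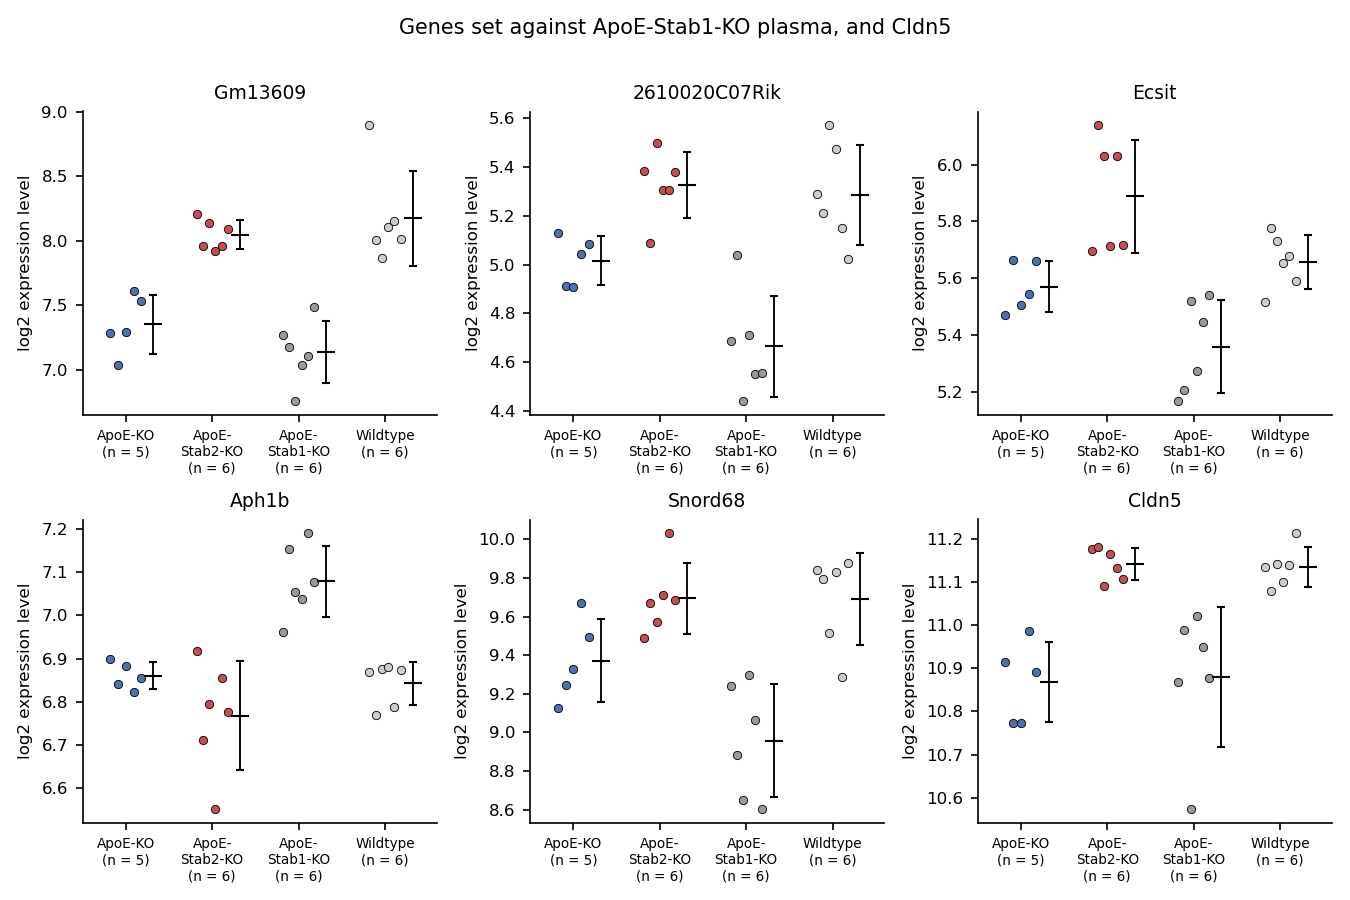
Log2 expression level (vertical axis) of 5 genes called between ApoE-Stab2-KO and ApoE-Stab1-KO plasma, and of Cldn5, in every array of the 4 plasma groups, with means and standard deviations. Gm13609 lies at 7.92 or above in all ApoE-Stab2-KO arrays and at 7.61 or below in all ApoE-KO arrays.

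Among protein-coding genes above the median level, those with the smallest p that were higher with ApoE-Stab2-KO plasma did not pass. Bace2, a membrane protease, was at 5.84, 5.76, 5.81, 5.87 and 6.14 with ApoE-KO plasma and at 6.16, 6.34 and 6.43 with ApoE-Stab2-KO plasma (0.42 ± 0.08, adjusted p = 0.142, no overlap). The ApoE-Stab1-KO arrays of Bace2 lay close to the latter, with a median of 6.29. Iscu, the scaffold on which iron-sulphur clusters are built, was 9.73 to 9.91 with ApoE-KO plasma and 9.98 to 10.26 with ApoE-Stab2-KO plasma (0.29 ± 0.06, 0.156). Smdt1, a subunit of the mitochondrial calcium uniporter, was 9.65 to 9.91 and 9.97 to 10.12 (0.27 ± 0.06, 0.196). The zinc finger gene Zfp593 (0.56 ± 0.12), the secreted factor gene Mydgf (0.23 ± 0.05), the GTPase gene Gpn3 (0.26 ± 0.06), the histone variant gene H2az2 (0.27 ± 0.06), Galt of galactose metabolism (0.22 ± 0.05) and Disc1 (0.28 ± 0.07) had adjusted p-values of 0.156 to 0.205 in limma.

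On the lower side, beside the sterol genes and Havcr2, stood the protocadherin gene Pcdhgb1 (-0.23 ± 0.05), Dennd4a (-0.24 ± 0.05), the phosphoinositide kinase gene Pi4k2b (-0.31 ± 0.07), the mitochondrial AAA ATPase gene Atad1 (-0.22 ± 0.05), Serp2 (-0.30 ± 0.07) and Pacsin1 (-0.26 ± 0.06). Their adjusted p-values were 0.156 to 0.192. By size the widest difference was that of Ass1, the argininosuccinate synthase that recycles citrulline to arginine for nitric oxide synthesis. It was at 5.86, 4.85, 4.63, 5.27 and 6.14 with ApoE-KO plasma and at 5.90, 6.40 and 6.78 with ApoE-Stab2-KO plasma (0.97 ± 0.28, adjusted p = 0.276). Its ApoE-KO arrays spread over more than 1 log2 unit, and replicate 5 lay inside the ApoE-Stab2-KO range. Krtap5-1 (0.60 ± 0.20), H2bc15 (0.48 ± 0.15), Bhmt (-0.43 ± 0.12), Sfn (-0.43 ± 0.15), Rangrf (-0.41 ± 0.13) and Rbm12b1 (-0.36 ± 0.13) also had wide differences and did not pass.

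No gene of endothelial identity passed. Of 26 such genes 17 had a positive difference (11879 of all 24704 did), and the median was 0.03. An unadjusted p under 0.05 in limma was reached by 6, all higher, beside 3.94% of all genes. Cldn5, the claudin of endothelial tight junctions, was at 10.92, 10.77, 10.77, 10.99 and 10.89 with ApoE-KO plasma and at 11.09, 11.15 and 11.18 with ApoE-Stab2-KO plasma. The groups did not overlap (0.27 ± 0.06, adjusted p = 0.156), and the Wildtype arrays, at 11.08 to 11.21, lay where the ApoE-Stab2-KO arrays did. Vwf, the von Willebrand factor of Weibel-Palade bodies, was at 8.09, 7.64, 7.85, 8.22 and 8.41 against 8.30, 8.52 and 8.75 (0.49 ± 0.13, 0.255). Ecscr (0.21 ± 0.06, 0.255) and Egfl7 (0.14 ± 0.04, 0.322) were higher in the same way. Junction genes numbered 21, with 13 positive and a median of 0.03, among them the connexin gene Gja5 (0.37 ± 0.14, 0.442) and Plvap, the diaphragm protein of caveolae (0.21 ± 0.08, 0.445). The values come from whole cultures, so fewer cells of a type and less RNA per cell cannot be told apart. Smooth muscle and fibroblast markers had medians of -0.03 each and 0 called genes.

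Of 17 flow-protective genes none passed, 10 were higher and the median was 0.02. Klf2, the transcription factor induced by laminar flow, was 10.2 ± 0.2 with ApoE-KO plasma and 10.4 ± 0.1 with ApoE-Stab2-KO plasma (0.20 ± 0.07, adjusted p = 0.386). Hmox1 (0.15 ± 0.06) and Cyp1a1 (0.28 ± 0.13) had adjusted p-values of 0.538 and 0.570. Angiogenic, VEGF and Notch genes (28 measured, median 0.01) and class 3 semaphorins with their receptors (14 measured, median -0.03) had none called. The guidance factor gene Sema3a differed by -0.25 ± 0.07 (0.255), the netrin receptor gene Unc5b by -0.20 ± 0.08 (0.541) and the semaphorin and VEGF co-receptor gene Nrp1 by 0.15 ± 0.07 (0.548). Of 17 haemostasis genes, with Vwf among them, none passed and the median was -0.04.

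Targets of TGF-beta, BMP and YAP signalling numbered 27, with a median of -0.03 and none called. Id1, a direct target of BMP signalling in endothelium, was at 9.42, 9.39, 9.18, 9.56 and 9.56 with ApoE-KO plasma and at 9.69, 9.77 and 9.83 with ApoE-Stab2-KO plasma. Its groups did not overlap (0.34 ± 0.08, adjusted p = 0.216), and ApoE-Stab1-KO and Wildtype arrays reached 9.59 and 9.61 at most. Id3 (0.25 ± 0.10, 0.487) and Smad7 (0.30 ± 0.14, 0.571) had the same sign, and Twist1 the opposite one (-0.27 ± 0.08, 0.307). Matrix genes (26, median -0.01) and matrix proteases with their inhibitors (20, median 0.01) had none called, with Eln, the elastin gene, at 0.44 ± 0.14 (0.359).

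The stabilins and their ligands were measured in the cells, which carry their own stabilin genes whatever the plasma donor lacked. Stab1 ranged from 9.86 to 10.04 in the ApoE-KO arrays and from 9.96 to 10.11 in the ApoE-Stab2-KO arrays (0.10 ± 0.05, adjusted p = 0.651). Stab2 was at 9.25, 8.93, 9.03, 9.07 and 8.88 against 8.81, 8.88 and 9.14 (-0.11 ± 0.07, 0.714). Against Wildtype plasma, at 9.24 to 9.42, Stab2 was lower with ApoE-Stab2-KO plasma (-0.40, adjusted p = 0.0055), and ApoE-KO minus Wildtype was -0.29 (0.055). Apoe itself (-0.11 ± 0.09) and the genes of the stabilin ligands Tgfbi (0.04 ± 0.07), Postn (0.05 ± 0.05) and Reln (-0.06 ± 0.04) did not pass, and Postn and Reln lay below the median gene. Cd44, the hyaluronan receptor, was 6.90 to 7.16 with ApoE-KO plasma and 6.67 to 6.86 with ApoE-Stab2-KO plasma (-0.22 ± 0.06, 0.264, no overlap). The scavenger receptor gene Scarf1 was 9.99 to 10.19 and 10.19 to 10.30 (0.14 ± 0.04, 0.340). Of 24 scavenger and lipoprotein receptor genes none passed, and the median was -0.0012.

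Lipid genes outside cholesterol synthesis showed no call. Fatty acid synthesis and desaturation had 20 measured genes and a median of -0.04. At an unadjusted p under 0.05 in limma 4 were lower and 2 higher, beside 4.42% and 3.94% of all genes. Fads2, the desaturase of polyunsaturated fatty acids (-0.18 ± 0.06), Elovl6, an elongase (-0.20 ± 0.07), and Lpin1, a phosphatidate phosphatase (-0.15 ± 0.05), each had an adjusted p of 0.386, while Acacb, the mitochondrial acetyl-CoA carboxylase, was on the positive side (0.23 ± 0.06, 0.255). Cholesterol efflux genes and LXR targets had 13 measured genes and a median of -0.04. Abca1, the exporter of cholesterol to apolipoprotein A-I, differed by 0.15 ± 0.08 (0.654) and Abcg1 by 0.13 ± 0.07 (0.657). Fatty acid uptake, storage and oxidation had 25 genes, 16 of them positive, and a median of 0.03.

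Adhesion, interferon, complement and MHC genes showed no call either. Of 29 adhesion molecules and NF-kB targets 17 were lower and the median was -0.01, with the chemokine gene Ccl2 at 7.6 ± 0.2 and 7.3 ± 0.2 (-0.24 ± 0.10, adjusted p = 0.548) and Icam2 at 0.12 ± 0.06 (0.613). Interferon-stimulated genes were higher in 19 of 28, with a median of 0.04. Ifi35 (0.19 ± 0.05, 0.255) and Ifitm3 (0.17 ± 0.05, 0.319) were among those with a positive difference, and Ifit3 among those with a negative one (-0.24 ± 0.10, 0.526). Complement and MHC genes numbered 19, with a median of -0.0019.

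**Figure D5:**
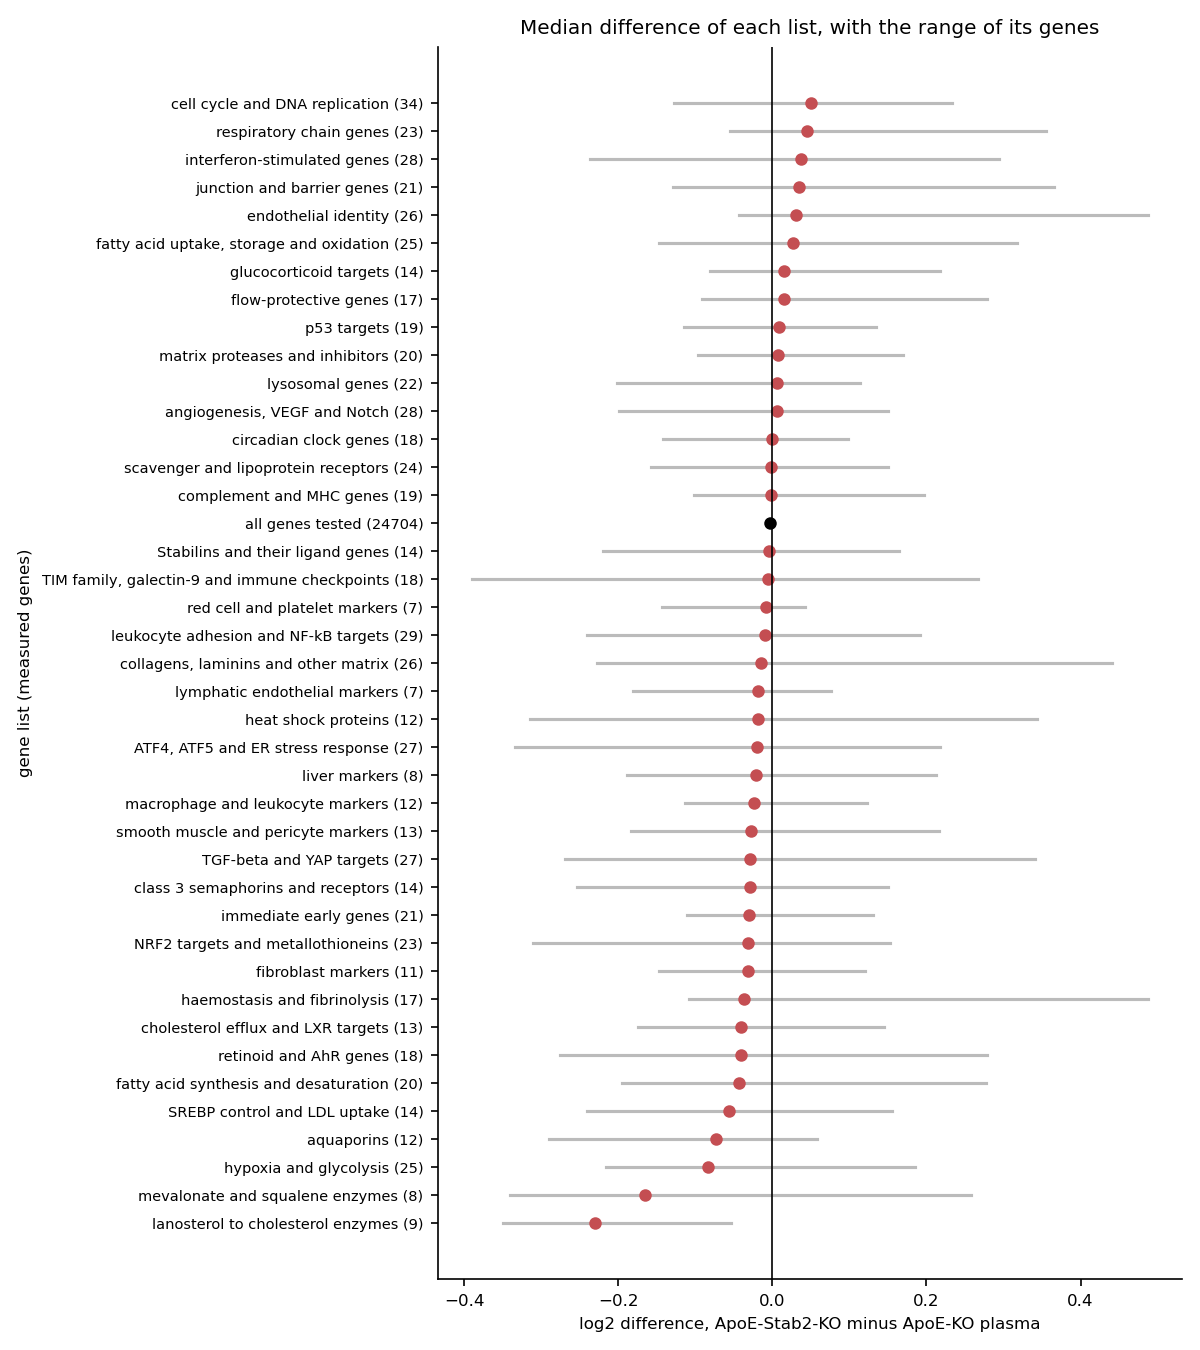
Median log2 difference, ApoE-Stab2-KO minus ApoE-KO plasma (horizontal axis), of the measured genes of 40 lists (red points, number of genes in brackets), with lines from the lowest to the highest gene. The late and early enzymes of cholesterol synthesis have the lowest medians, -0.23 and -0.17, and the black point is the median of all genes, -0.0035.

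Of the lists of cell state, hypoxia and glycolysis had the next lowest median after the sterol enzymes. It was -0.08 over 25 genes, 16 of them negative, with none called. At an unadjusted p under 0.05 in limma 4 were lower, beside 4.42% of all genes. Hk1, a hexokinase (-0.12 ± 0.04, adjusted p = 0.333), and Pfkp, a phosphofructokinase (-0.18 ± 0.06, 0.345), were lower, and Pfkfb3, which makes the activator of phosphofructokinase, was higher (0.19 ± 0.06, 0.383) without passing. Cell cycle and DNA replication genes were positive in 27 of 34, with a median of 0.05, among them Cdk1 (0.19 ± 0.06, 0.371) and Cdc45 (0.16 ± 0.06, 0.443). Respiratory chain genes were positive in 18 of 23, with a median of 0.05. Their lead gene Cycs, cytochrome c, differed by 0.28 ± 0.08 (0.263) with mean levels of 3.36 and 3.63, below the median gene.

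Slc7a11, the cystine transporter induced by NRF2 and by ATF4, was at 10.13, 10.16, 9.93, 9.86 and 9.86 with ApoE-KO plasma and at 9.58, 9.68 and 9.83 with ApoE-Stab2-KO plasma. Its groups did not overlap (-0.31 ± 0.08, adjusted p = 0.233). No member of the NRF2 list (23 measured, median -0.03) or of the ATF4, ATF5 and ER stress list (27, median -0.02) passed, Slc7a11 included. Retinoid and AhR genes (18, median -0.04), heat shock proteins (12, median -0.02), p53 targets (19, median 0.01), immediate early genes (21, median -0.03), glucocorticoid targets (14, median 0.02), circadian clock genes (18, median -0.0003) and lysosomal genes (22, median 0.01) had 0 called genes each. Among these, the lysosomal sialidase gene Neu1 differed by -0.20 ± 0.06 (0.340) and Dnaja1, a co-chaperone, by -0.31 ± 0.13 (0.538, no overlap).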

How the data were processed

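Total RNA of the cells was turned into biotin-labelled cRNA and hybridised to arrays. The deposited values are log2 expression levels made with RMA, per the submitters' processing notes, a method of background correction, quantile normalization and probe summary. Its version, the array's build and detection calls were not used here. ApoE-KO replicate 1 was stored with finer decimals (4.21% of values on the grid that held 100% in the others). In the mean of the cholesterol synthesis enzymes it was the highest ApoE-KO array, at 8.13 where the others were at 7.95 to 8.07. Without it the Hmgcs1 difference was -0.30, and whether the storage bears on its values was not tested. Of 25428 probe sets 24705 had 1 symbol in the platform annotation and 723 none, and for a repeated symbol the brighter was kept, leaving 24704 genes.

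The tests used limma 3.58.1 (R 4.3.3; lmFit and eBayes, 1 mean per plasma group over all 23 arrays, 19 residual and 4.19 prior degrees of freedom), with Benjamini-Hochberg adjustment over 24704 genes and a threshold of 0.05. There was no filter on dim genes. The number of arrays limits the precision: the median standard error of a difference was 0.07. The fit was tested on simulated data. Exact permutation tests are two-sided over 462 arrangements. Plots used Python 3.11.15 with matplotlib 3.10.9.

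The 40 lists (744 genes, 694 measured) and the naming rule were chosen with earlier results of these data known, so no list was tested. The rule named every called gene. Among protein-coding genes above the median level, without predicted, Riken, small RNA or olfactory receptor names, it added the 10 smallest p in each direction and the 5 highest and 5 lowest differences with an unadjusted p under 0.01. It further added the genes of the sterol lists, up to 4 members per other list, Apoe, Stab1, Stab2, Tgfbi, Postn and Reln, and 10 genes called against ApoE-Stab1-KO plasma. Ptprc, Cd68 and other markers came from the marker lists. Classes, overlaps and promoters came from RefSeq (GRCm38.p6). Alternatives are given in the closing section. The labels do not say whether replicate numbers pair the arrays, and the main fit took the arrays as unpaired.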

Additional observations from a re-analysis of the deposited data

Results flagged for a closer look

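Each of 314 checks took a gene, or the mean of a sterol enzyme list, in the ApoE-KO or ApoE-Stab2-KO arrays. The measure was the gap to the nearest array over the whole range of the group. Single arrays stood far from the rest of their group in 13 checks, where chance gives about 15.7 (5%). ApoE-KO replicate 5 was the array in 3 of them, with gap ratios of 0.725 for Bace2, 0.730 for Pcdhgb1 and 0.853 for Cdk1. ApoE-KO replicate 1 was the array for Abca1 (0.745) and Lgals3 (0.838), and ApoE-KO replicate 3 for Reln (0.811). Among the ApoE-Stab2-KO arrays, replicate 2 stood apart for Lss (0.632) and Sc5d (0.641), replicate 4 for Gpn3 (0.753) and Apoc1 (0.638), replicate 5 for Pfkfb3 (0.818) and Uqcrc1 (0.632), and replicate 3 for Apoe (0.681).

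ApoE-Stab2-KO and ApoE-Stab1-KO plasma, each set against ApoE-KO plasma, differed in their effect on 10 named genes by the direct test between them with limma. The log2 differences were 1.2463 for Mir1896, 0.6812 for Gm16617, 0.6602 for 2610020C07Rik, 0.9106 for Gm13609, 0.5296 for Ecsit, -0.3105 for Aph1b, 0.6884 for Gm34921, 0.5628 for Rpl36-ps3, 0.7367 for Snord68 and 0.3483 for Gm4540.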

How the results depend on the processing

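The count of 6 called genes between ApoE-Stab2-KO and ApoE-KO plasma was 6 after quantile normalization again, after centring each array on its median and with each probe set as its own feature. It was 4 with trend and robust settings, which kept 4 of the 6. Among protein-coding genes only, where 4 of the 6 were tested, it was 4 and all of them stayed. Among genes above the median level, where 3 of the 6 were tested, it was 2. With only the arrays of the groups compared it was 1. That fit had 2531 genes at an unadjusted p under 0.05 in limma, against 2065 in the main fit. A fold of at least 1.5 in addition left 1, and array weights raised it to 18. The exact permutation test of every gene, added after the data had been seen, gave 0, with 2065 genes at an unadjusted p under 0.05 in limma. No single gene could pass that permutation test, since its smallest possible p of 0.00216 adjusted to 0.269. With the replicate block the count was 0, with 2031 genes at an unadjusted p under 0.05. Residuals of same-numbered arrays correlated at -0.038 to 0.062 between the groups compared and at -0.096 to 0.106 between any groups. Correlations over all genes cannot tell whether the numbers pair the samples for some genes. Leaving out each array gave 0 to 12, and leaving out ApoE-Stab1-KO replicate 1, also added later, gave 10. The causes of these changes in the count were not tested. Between ApoE-Stab2-KO and ApoE-Stab1-KO plasma the 12 called genes became 21 with trend and robust settings, 4 with only the arrays of those groups, 9 with the replicate block and 8 to 37 with each array left out. No named gene that was called changed direction under any alternative run. Trend and robust settings, and the fit to only the groups compared, leave the difference itself unchanged, so its direction there was given in advance. The same holds for leaving out 1 array where the groups of a gene did not overlap. The medians of the sterol lists stayed negative in 21 alternatives, at -0.207 to -0.122 for the early enzymes and -0.282 to -0.200 for the late ones. Depth is not a limit that arrays record, and signal over background was not analysed here, so differences of dim genes such as Aqp4, Olfr372 and Gm16617 rest on relative levels only.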
